A study of Mus musculus with 3 samples.

Results

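Mature migratory dendritic cells were followed in single-cell RNA-seq libraries of stromal and vascular cells from the inguinal white fat of mice. A cell barcode was counted as a member if it held at least 500 genes, at most 15% mitochondrial UMIs (unique molecular identifiers, each 1 counted RNA molecule), a UMI of at least 3 of the 6 genes Fscn1, Ccl22, Ccr7, Cacnb3, Il4i1 and Zmynd15, and no UMI of Cd3e or Cd79a, which mark T and B cells. There were 76 members among 6761 kept barcodes of the libraries compared, 49 in the wild type (genotype TERT +/+ in the labels, with no Cre named) and 27 in Pdgfrb-Cre; TERT fl/fl. The remaining library, Pdgfra-Cre; TERT fl/fl, brought the kept barcodes to 8186 and held 1 barcode that met the rule. Telomerase takes its catalytic subunit from Tert, the floxed gene, and each Cre is driven by the promoter of a platelet-derived growth factor receptor of mesenchymal cells, so dendritic cells are not the cells the Cre is named for. Each genotype was 1 library, the sources used here name neither an age nor how many animals were pooled, and genotype and library cannot be told apart. All 3 libraries share a step that took out erythrocytes and dead cells ahead of loading. Members of both libraries compared held UMIs of Y-linked genes and none of Xist. The letters PBS stand in the title of the wild-type sample without explanation.

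Conventional dendritic cells take up antigen in tissues such as skin and fat. When they mature, they raise the chemokine receptor Ccr7, rebuild their actin cytoskeleton and travel through lymph vessels to the draining lymph node, where they show antigen to T cells. Maturation is known to lower the making of new MHC class II RNA while the proteins already made stay on the surface, and to bring up costimulatory molecules, T cell-attracting chemokines and a set of molecules that restrain T cells.

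Because the 6 genes chose the members, their levels describe the choice and are not results. They encode fascin, an actin-bundling protein (Fscn1, GRCm38 chr5:142960343-142973185), a ligand of Ccr4 (Ccl22, chr8:94745590-94751699), the receptor for Ccl19 and Ccl21 (Ccr7, chr11:99144196-99155077), a calcium channel subunit (Cacnb3, chr15:98630840-98644529), an amino acid oxidase (Il4i1, chr7:44816387-44840809) and a zinc finger protein (Zmynd15, chr11:70459433-70466202), all protein-coding genes. Of the members, 15 of the wild type and 8 of Pdgfrb-Cre; TERT fl/fl held exactly 3 of the 6, just inside the threshold, and 8 in either library held all 6. Just outside it, 46 and 55 barcodes without Cd3e and Cd79a held 2 of the 6, and 65.2% and 85.5% of those met the marker rule of another cell class. The condition on Cd3e and Cd79a barred 22 barcodes of the wild type and 3 of Pdgfrb-Cre; TERT fl/fl that held 3 or more of the genes.

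The members differed in depth between the libraries, and some held RNA of other cell types. Wild-type members had a median of 2491 UMIs (919 to 23256) and 954 genes, and those of Pdgfrb-Cre; TERT fl/fl a median of 10294 UMIs (2279 to 110420) and 2449 genes. In each library 6 members also met the marker rule of T cells, macrophages, stromal or endothelial cells or held over 40000 UMIs. These 6 carried 10.8% of the members' UMIs in the wild type but 59.8% in Pdgfrb-Cre; TERT fl/fl, where 3 barcodes of 40582, 53288 and 110420 UMIs, each with exactly 3 of the 6 genes, carried 45.7%. Sums over all members of Pdgfrb-Cre; TERT fl/fl therefore rest mostly on barcodes with RNA of several classes. Counts of genes are given for all members and for the 43 and 21 members left without them, called one-class members here, with medians of 2491 and 9598 UMIs. Levels of single genes are those of one-class members unless all members are named. That set was chosen after the data were seen.

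**Figure D1:**
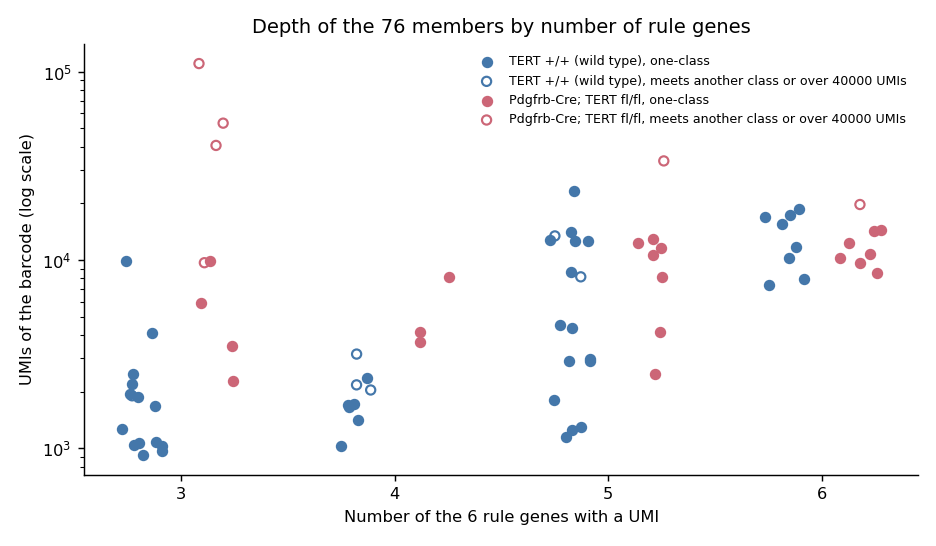
UMIs of each of the 76 members (vertical axis, log scale) by the number of the 6 rule genes seen (horizontal axis, points spread sideways for legibility), filled for one-class members and open for barcodes that met another class or held over 40000 UMIs. The 3 deepest barcodes of Pdgfrb-Cre; TERT fl/fl sit at 3 genes, and 29 of the 49 wild-type members lie under 4000 UMIs against 4 of 27 in Pdgfrb-Cre; TERT fl/fl.

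The markers of other cell types were much lower without these barcodes in Pdgfrb-Cre; TERT fl/fl, and in the wild type part of them remained. Stromal, endothelial, macrophage and T cell markers were used to leave barcodes out, so their fall follows in part from that choice. The summed level of 8 stromal markers was 1835 CPM (UMIs per 1000000 UMIs of the set) over all Pdgfrb-Cre; TERT fl/fl members and 27.8 CPM over the one-class members, and in the wild type 77.2 and 19.7 CPM. Endothelial markers summed to 7359 and 89.0 CPM in Pdgfrb-Cre; TERT fl/fl. In the wild type they stood at 1327 and 787 CPM, mainly through Fabp4, a fatty acid-binding protein of capillaries and fat cells that had a UMI in 51.2% of one-class members and in 30.8% of wild-type B cells. Erythroid, mural, and epithelial and mesothelial markers were at 0 in the one-class members of Pdgfrb-Cre; TERT fl/fl. Macrophage markers summed to 27.5 and 22.3 CPM in one-class members of the wild type and of Pdgfrb-Cre; TERT fl/fl. In the wild type T cell markers stood at 312 CPM over all members and 181 CPM over one-class members, B cell markers at 151 and 122 CPM, and monocyte and neutrophil markers at 232 and 252 CPM, of which S100a9 gave 126 and S100a8 66.9 CPM over one-class members. In Pdgfrb-Cre; TERT fl/fl these lists summed to 16.7, 33.4 and 5.56 CPM over one-class members. The part of the remaining foreign RNA in the results below was not tested.

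The label was checked against genes that the rule did not use, and markers common to conventional dendritic cells were present while those of the immature subsets were low. The growth factor receptor Flt3, the transcription factor Zbtb46 and 4 further markers of conventional dendritic cells summed to 224 CPM in one-class members of the wild type and 506 CPM in those of Pdgfrb-Cre; TERT fl/fl, against 61.9 and 36.3 CPM in T cells. In the wild type this sum is close to that of the monocyte and neutrophil list given above. B cells held 609 and 369 CPM, since Bcl11a and Cd24a of that list are also B cell genes. Markers that separate the immature subsets were low: type 1 markers summed to 27.5 and 44.5 CPM and type 2 markers to 55.1 and 161 CPM. Plasmacytoid markers summed to 110 and 100.2 CPM, of which Bst2 gave 78.7 and 100.2 CPM. Langerhans cell markers summed to 433 and 94.6 CPM, with Mfge8 the gene seen most often. In the wild type this sum is above that of the conventional dendritic markers. Epcam of that list had a UMI in 10 of 43 and 2 of 21 one-class members, against 3.31% and 6.20% of B cells. Cd207, a lectin of Langerhans cells, had a UMI in 3 of 43 and 1 of 21 one-class members, and 85.7% of its UMIs in the wild type came from 1 barcode.

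Mature migratory dendritic cells made up 1.80% of kept barcodes in the wild type (49 of 2728, 95% Clopper-Pearson interval 1.33 to 2.37) and 0.669% in Pdgfrb-Cre; TERT fl/fl (27 of 4033, 0.442 to 0.973). The share was 2.68 times as high in the wild type (1.64 to 4.46), and 3.03 times (1.76 to 5.37) for one-class members. The kept barcodes differed in makeup, with T cells at 24.3% in the wild type and 42.3% in Pdgfrb-Cre; TERT fl/fl, and endothelial cells at 16.8% and 5.16%. Of all barcodes 29.1% and 4.75% held under 500 genes and were not kept. The part of these differences in the share was not tested. Counting the 20 and 23 members of at least 4000 UMIs over all kept barcodes, the ratio was 1.29 (0.670 to 2.45), and its interval holds 1. That cut fell on the members alone, and the kept barcodes had medians of 3304.5 and 5771 UMIs. This ratio thus cannot separate the share from depth. When every barcode was instead thinned to 2000 UMIs before the rule was applied, 28 of 1814 barcodes of the wild type and 19 of 3875 of Pdgfrb-Cre; TERT fl/fl were members, 1.54% and 0.490%, a ratio of 3.15 (1.70 to 5.96). Unthinned, 29 and 27 of the same barcodes were members, and 914 and 158 shallower barcodes were left out. In Pdgfra-Cre; TERT fl/fl the 1 barcode found among 1425 held 25110 UMIs and met another class, so no one-class member was seen, which allows a share of up to 0.259%. These intervals, like all below, are at the 95% level, cover counting error alone and treat each barcode or UMI as a separate draw, and the spread between animals is unknown.

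Against other conventional dendritic cells of the same library, the members held more RNA for the chemokines Ccl5, Ccl17 and Cxcl16, for several MHC class I genes and for the non-canonical NF-kB subunit Relb. They held less for MHC class II, for 5 of 10 listed chemokines and for single genes such as Lyz2, Plac8 and Ccr2. The other dendritic cells (20 in the wild type and 35 in Pdgfrb-Cre; TERT fl/fl, or 17 and 31 one-class barcodes) were chosen by at least 3 of 8 type 1 genes (Xcr1, Clec9a, Wdfy4, Naaa, Cadm1, Itgae, Tlr3, Snx22) or of 8 type 2 genes (Cd209a, Clec10a, Mgl2, Kcne3, Tnip3, Flt3, Zbtb46, Itgax), which are thus no finding in this comparison. A gene was called 2-fold different where the ratio of CPM, with 10 CPM added to both sides, passed 2-fold in both libraries. In the wild type alone 10.4% of features were 2-fold higher in all members and 28.7% lower, and in Pdgfrb-Cre; TERT fl/fl 16.4% and 8.25%. Of 7590 features with at least 10 CPM on either side in both, 305 (4.02%) were 2-fold higher in the members and 367 (4.84%) 2-fold lower. Among one-class barcodes these were 471 (7.03%) and 719 (10.7%) of 6701. With 1 library per genotype there is no test. Members and controls were chosen the same way in both libraries, but these differ in genotype and depth, so their agreement does not replace a replicate.

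Ccl5, a chemokine that draws effector T cells (chr11:83525778-83530518), was the most abundant of its family in the members and the first of the 15 genes highest over other dendritic cells. It stood at 12333 CPM in one-class members of the wild type against 39.1 CPM in other dendritic cells, 315 times as high (145 to 860), and at 6783 against 20.98 CPM in Pdgfrb-Cre; TERT fl/fl, 323 times (175 to 676). It was spread over nearly every member, with medians of 87.8 (0.712 to 459) and 35.3 (0 to 291) UMIs per 10000 UMIs of the barcode and 1 one-class member at 0. T cells, which also make Ccl5, held 830 and 2145 CPM. Ccl17, which binds Ccr4 like Ccl22 and lies beside it on chromosome 8 (chr8:94810453-94812036), was at 346 CPM against 0 UMIs in the wild type, at least 17.7-fold higher, and at 495 against 6.29 CPM in Pdgfrb-Cre; TERT fl/fl, 78.7 times (26.1 to 389). Unlike Ccl5 it came from few barcodes: 33 of 43 and 14 of 21 one-class members had no Ccl17 UMI, and 1 barcode held 68.2% and 77.5% of the UMIs. Cxcl16, a membrane-bound ligand of Cxcr6, was 10.1 (4.99 to 23.9) and 4.85 (3.74 to 6.31) times as high.

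Of 10 chemokine genes tested in both libraries these 3 were 2-fold higher and 5 were 2-fold lower in one-class members. The 5 were Ccl2, Ccl3 and Ccl4, which draw monocytes and other inflammatory cells, and the interferon-induced Cxcl9 and Cxcl10. In the wild type Ccl4 had no UMI in one-class members against 39 in other dendritic cells (254 CPM), at least 21.5-fold lower, and in Pdgfrb-Cre; TERT fl/fl none against 17 (35.7 CPM), at least 2.14-fold lower. Over all members Ccl3 and Cxcl10, together with Ccl9, were the lower ones among 11 tested.

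Among 9 cytokine genes tested, Il15, Il15ra and Il12b were 2-fold higher and Il1b and Ltb 2-fold lower over all members. Il15 and its presenting receptor Il15ra, which sustain memory T cells and NK cells, stood at 177 and 122 CPM in one-class members of the wild type with no UMI in other dendritic cells, at least 9.06-fold and 6.24-fold higher. In Pdgfrb-Cre; TERT fl/fl Il15 was at 83.5 CPM against none, at least 13.3-fold higher, and Il15ra at 234 against 2.10 CPM. Il15 was seen in 20 of 43 and 8 of 21 one-class members, against 1.19% and 0.870% of B cells, whose median depths were 3617.5 and 3435 UMIs. Il12b, the shared subunit of interleukins 12 and 23, was at 78.7 and 44.5 CPM but in only 3 and 4 of these members, and 1 barcode held 85.0% of its UMIs in the wild type. Il1b, an inflammatory cytokine, was 4.97-fold (1.72 to 17.5) and 4.11-fold (2.97 to 5.83) lower.

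Transcripts for MHC class I and its regulators were higher in the members. Over all members 6 of 20 genes were 2-fold higher in both libraries and none lower, and over one-class members 9 of 20. H2-K1, a classical class I heavy chain, was at 4628 against 1838 CPM in the wild type (2.52 times, 2.21 to 2.88) and 3600 against 984 CPM in Pdgfrb-Cre; TERT fl/fl (3.66 times, 3.24 to 4.13). B2m, the class I light chain, was 2.56 and 3.92 times as high. Nlrc5, the transactivator of class I genes, was 19.9 times (3.34 to 811) and 17.2 times (5.98 to 68.0) as high, on 1 and 4 UMIs in the other dendritic cells. H2-M2 (chr17:37480851-37483552), a nonclassical class I gene, was the second of the 15 highest genes: 1787 against 6.52 CPM in the wild type, 274 times (49.0 to 10851), and 545 CPM against no UMI in Pdgfrb-Cre; TERT fl/fl, at least 86.7-fold higher. Class I genes are near-identical copies in part, so reads of H2-K1, H2-D1 and H2-Q7 may be shared between them.

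MHC class II transcripts were lower. Of 16 genes of class II and antigen processing 9 were 2-fold lower in both libraries and none higher, both over all members (list medians -1.64 and -1.61 on the log2 scale, with -0.46 and 0.17 over all features) and over one-class members. H2-Ab1, the class II beta chain, was at 535 against 5468 CPM in the wild type, 10.2-fold lower (8.51 to 12.3), and at 1458 against 8520 CPM in Pdgfrb-Cre; TERT fl/fl, 5.84-fold lower (5.16 to 6.65). Cd74, the invariant chain that guides class II through the cell, was 5.01-fold and 3.54-fold lower. The peptide-exchange subunits H2-DMa (7.11-fold and 11.2-fold lower) and H2-DMb1 (35.6-fold and 24.9-fold lower) showed larger differences. Ciita, the transactivator of class II genes, stood at 3 UMIs in the wild type and 2 in Pdgfrb-Cre; TERT fl/fl, 9.94-fold lower (2.90 to 52.7) and 4.15-fold lower (1.02 to 36.4).

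The low class II level was a feature of most members but not of all. Summed class II UMIs per 10000 had a median of 35.5 in wild-type members (0 to 206) and 16.5 in those of Pdgfrb-Cre; TERT fl/fl (0.272 to 799), or 35.5 and 22.8 in one-class members. Type 1 dendritic cells had medians of 209 and 356, type 2 dendritic cells 125 and 501, B cells 169 and 277, and T cells 0 in both. The ranges of members and of the other dendritic cells overlapped in both libraries. In Pdgfrb-Cre; TERT fl/fl 1 one-class member held 38.2% of the H2-Ab1 UMIs, and without the barcode with the most UMIs of that gene H2-Ab1 was at 954 in place of 1458 CPM.

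**Figure D2:**
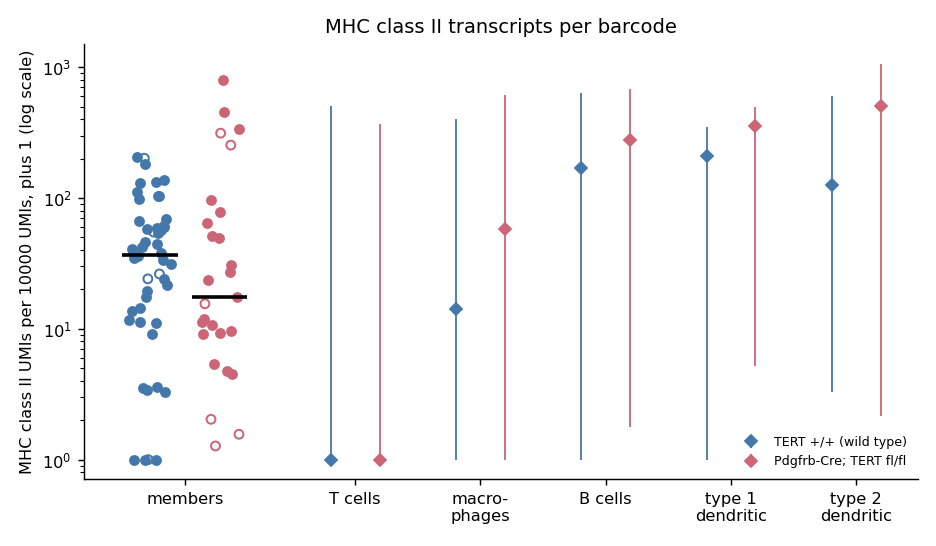
MHC class II UMIs per 10000 UMIs, plus 1, on a log scale: points at the left are single members with a bar at the median of all members (open points met another class or held over 40000 UMIs), and diamonds with lines are the median and the lowest to highest barcode of other classes of each library. Member medians of 35.5 and 16.5 lie under those of B cells and of both other dendritic classes, and a few members reach the levels of these classes.

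Migration genes outside the rule were higher in the members. Among 13 genes of migration and cytoskeleton tested in both libraries, 7 were 2-fold higher over all members, 8 over one-class members, and none was lower in both. Marcksl1, an actin-binding substrate of protein kinase C, was 15.6 times (8.34 to 32.9) and 11.1 times (7.75 to 16.3) as high. Anxa3, a phospholipid-binding annexin, was 21.4 and 142 times as high, on 5 and 3 UMIs in the other dendritic cells. Tbc1d4, Samsn1 and Basp1 were between 4.12 and 7.79 times as high. Of 26 other genes known from mature migratory dendritic cells, 22 were 2-fold higher in both libraries over all members and 23 over one-class members, and none was lower in both. That list was drawn up for these cells with results of these data known, so its direction is not independent evidence.

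The remaining genes among the 15 highest over other dendritic cells had various roles. All 15 were 2-fold higher in one-class members of both libraries, which are part of the barcodes that ranked them. Cd63, a tetraspanin of late endosomes, was at 649 against 45.6 CPM (14.2 times, 6.76 to 35.95) in the wild type and at 1057 against 14.7 CPM (72.0 times, 34.3 to 182) in Pdgfrb-Cre; TERT fl/fl. Epsti1, an interferon-inducible gene, was at 3742 and 3060 CPM, 17.4 and 29.2 times as high, and Tmem123, a surface mucin-like protein, 15.1 and 27.1 times. Fxyd2, a regulator of the sodium pump, stood at 744 and 317 CPM with 1 UMI in the other dendritic cells of each library. Eno3, an enolase of glycolysis best known from muscle, was 28.8 and 43.3 times as high. Nudt17, Synpo2, Serpinb6b, Ankrd33b, Slco5a1 and Slc4a8 completed the set with Anxa3 and Tnfrsf4. Nudt17 and Synpo2 had no UMI in the other dendritic cells of either library.

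The 10 genes lowest against other dendritic cells began with Lyz2, Plac8 and Plbd1. All 10 were 2-fold lower in one-class members of both libraries, again part of the barcodes that ranked them. Lyz2, the lysozyme of myeloid cells, was at 59.0 against 4725 CPM in the wild type, 80.0-fold lower (48.2 to 144), and had no UMI against 1571 CPM in Pdgfrb-Cre; TERT fl/fl, at least 94.1-fold lower. Ccr2, the receptor that brings monocytes from blood, had 1 UMI and 0 UMIs in one-class members against 254 and 321 CPM, in Pdgfrb-Cre; TERT fl/fl at least 19.2-fold lower. Plac8 was 51.8-fold (28.6 to 105) lower in the wild type, and Alox5ap, which activates leukotriene synthesis, 46.9-fold and 53.5-fold lower on 3 and 2 UMIs. Plbd1, Ms4a6c, Ifi205, the pore-former Mpeg1 and H2-DMb1 were the others, and Naaa was among the genes that chose the other dendritic cells.

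Costimulatory and regulatory genes were mixed. Cd40, the receptor through which helper T cells license dendritic cells, was 5.64 (2.43 to 16.01) and 13.3 (6.65 to 29.3) times as high as in other dendritic cells, and Tnfrsf4 at least 11.5 times in the wild type and 31.8 times (11.7 to 122) in Pdgfrb-Cre; TERT fl/fl. These were the 2 of 9 costimulation genes 2-fold higher in both libraries, and Cd83 joined them over one-class members (2.57 and 2.87 times). Cd86 was at 63.0 against 104 CPM and 401 against 277 CPM, with intervals of the ratio of 0.283 to 1.29 and 1.07 to 1.94. Among 13 regulatory genes Fas, Socs1, Socs2, Aldh1a2 and Tnfrsf9 were 2-fold higher and Havcr2 2-fold lower over all members. Aldh1a2 had a UMI in only 5 of 49 and 2 of 27 members. In one-class members of Pdgfrb-Cre; TERT fl/fl all 5 of its UMIs came from 1 barcode. Socs2, a brake on cytokine signalling, was 23.1 (7.72 to 114) and 67.2 (22.1 to 333) times as high, and was seen in 22 of 43 and 18 of 21 one-class members, against 6.78% and 3.63% of T cells, whose median depths were 5542.5 and 6428 UMIs. Cd274, the ligand PD-L1, stood at 31.5 against 19.6 CPM in the wild type and 234 against 88.1 CPM in Pdgfrb-Cre; TERT fl/fl, where the ratio was 2.65 (1.69 to 4.17).

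Relb and Birc2 were the 2 of 20 NF-kB pathway genes 2-fold higher in both libraries over all members. Relb, the partner of p52 in the non-canonical pathway, was at 732 against 91.2 CPM in one-class members of the wild type (8.02 times, 4.66 to 14.96) and at 740 against 62.9 CPM in Pdgfrb-Cre; TERT fl/fl (11.8 times, 7.87 to 18.1). Birc2, an inhibitor of apoptosis that acts in this pathway, was 7.09 and 9.33 times as high. Traf1 and Ikbkb passed 2-fold in both libraries over one-class members. Of 27 transcription factors Id2, Relb and Stat4 were 2-fold higher over all members and Irf5 2-fold lower. In the wild type Stat4 was seen in only 2 of 49 members, against 9.13% of B cells and 16.1% of T cells. It had 4 UMIs in one-class members there, 3 of them in 1 barcode. Id2, needed for dendritic cell development, was 2.23 and 4.14 times as high in one-class members. Irf8, a factor of type 1 dendritic cells, differed in direction between the libraries: 2.96-fold lower (2.28 to 3.85) in the wild type and 1.61 times as high (1.28 to 2.02) in Pdgfrb-Cre; TERT fl/fl.

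**Figure D3:**
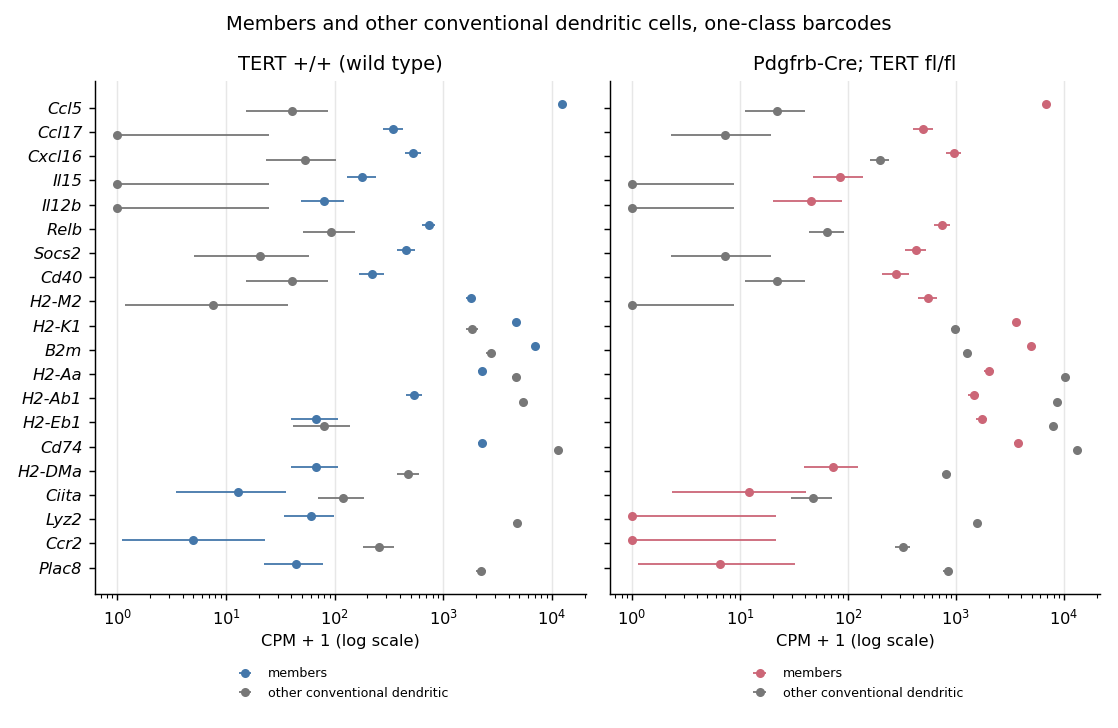
CPM plus 1 on a log scale of 20 genes in one-class members (coloured) and in other one-class conventional dendritic cells (grey) of each library, with exact Poisson 95% intervals that cover counting error alone. From Ccl5 to B2m the members lie to the right, as at 12333 against 39.1 CPM for Ccl5 of the wild type, and from H2-Aa down to the left, except H2-Eb1 in the wild type, where 66.9 and 78.2 CPM have overlapping intervals.

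**Figure D4:**
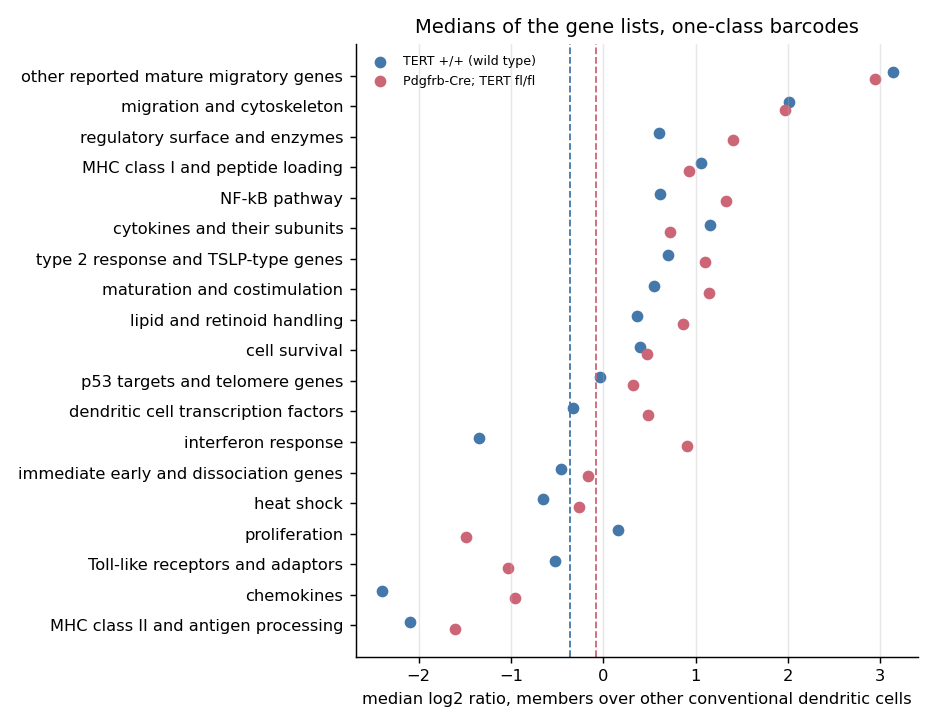
Median log2 ratio of members over other conventional dendritic cells for 19 gene lists, one-class barcodes, 1 point per library, with dashed lines at the medians over all features (-0.37 in the wild type and -0.08 in Pdgfrb-Cre; TERT fl/fl). The list of reported mature migratory genes is highest (3.14 and 2.95), MHC class II is low in both libraries (-2.10 and -1.61), and the interferon list has opposite signs (-1.35 and 0.91).

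The second comparison was between genotypes. Over all members 2292 of 8754 features (26.2%) were 2-fold higher in Pdgfrb-Cre; TERT fl/fl and 504 (5.76%) 2-fold lower. With median-of-ratios scaling the counts were 1927 and 783, and over one-class members 1163 (15.6%) and 943 (12.7%) of 7437. The median log2 ratio over all features was 0.37 over all members and 0.10 over one-class members, and ratios are read against it. B cells of the same libraries had 4.09% of features 2-fold higher and 5.14% lower, T cells 4.47% and 2.88%, over many more barcodes. No gene is called changed, and library, genotype, depth and the makeup of the members cannot be told apart.

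The targeted gene could not be checked in these cells: Tert had no UMI in wild-type members and 1 UMI in those of Pdgfrb-Cre; TERT fl/fl. Among the 10 genes with the highest ratio over all members, 5 held no 2-fold difference in the same direction in one-class members. Apoe, a lipid carrier of macrophages and stromal cells, was at 49.1 CPM in the wild type and 1515 CPM in Pdgfrb-Cre; TERT fl/fl over all members but at 39.4 and 11.1 CPM over one-class members. The transcription factor Cebpd was at 7.02 and 329 CPM, then 7.87 and 5.56 CPM, and the immediate early gene Egr1 at 42.1 and 830 CPM, then 19.7 and 27.8 CPM. Lmna and Ier3 were at 577 and 745 CPM over all members of Pdgfrb-Cre; TERT fl/fl and at 39.0 and 22.3 CPM over its one-class members. Dcn, a proteoglycan of fibroblasts, was 74.0 times as high over all members (28.7 to 273), and stood at 0 and 2 UMIs over one-class members. Trib1 and Tnfrsf12a rested on 5 and 3 UMIs in one-class members of Pdgfrb-Cre; TERT fl/fl. Over one-class members these 8 genes held at most 59.0 CPM in either library.

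H2-Eb1 and Klf4, the other 2 of these 10, were 2-fold higher in one-class members as well. So were Dcn, Tnfrsf12a and Trib1, on the few UMIs given above. H2-Eb1, the beta chain of I-E (chr17:34305867-34316674), was at 66.9 CPM in the wild type and 1725 CPM in Pdgfrb-Cre; TERT fl/fl, 25.8 times as high (15.8 to 44.8). It was also higher in every other class compared: 18.2 times in B cells, 13.4 in T cells, 38.8 in macrophages and 112 in the other dendritic cells. Klf4, a zinc finger factor, was 9.38 times as high (4.95 to 19.6), and 15.5 times over all members, against 2.19 in B cells and 2.71 in T cells.

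Genes of the NF-kB pathway were higher in one-class members of Pdgfrb-Cre; TERT fl/fl. Of 21 tested genes 11 were 2-fold higher and none lower (list median 1.14), where 15.6% of all features were 2-fold higher. Over all members 7 were higher and none lower, near the share of 26.2% over all features, and the list median of 0.26 lay under the 0.37 of all features. Rel, the c-Rel subunit, was at 421 CPM in one-class members of the wild type and 2610 CPM in those of Pdgfrb-Cre; TERT fl/fl, 6.20 times (5.01 to 7.72), where all members gave 2.78 times (2.29 to 3.40). Per barcode the median was 1.58 UMIs per 10000 in the wild type (0 to 20.6) and 27.8 in Pdgfrb-Cre; TERT fl/fl (8.95 to 54.6), with Rel seen in 25 of 43 and 21 of 21. The ranges overlapped, but every one-class member of Pdgfrb-Cre; TERT fl/fl lay above the wild-type median.

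Inhibitors known to be induced by NF-kB were among the 11. Nfkbia, which holds NF-kB in the cytoplasm, was at 964 and 3278 CPM (3.40 times, 2.92 to 3.96), Tnfaip3, the ubiquitin-editing enzyme A20, at 157 and 712 CPM (4.52 times, 3.15 to 6.63) and Nfkb1 at 150 and 390 CPM (2.605 times, 1.73 to 3.97). Over all members Tnfaip3 was 2.10 and Nfkb1 2.11 times as high. Nfkbib, Nfkbiz, Nfkbie, Tnip1, Tnip3, Map3k14 and Bcl3 were the other 7 past 2-fold. Relb did not share the difference: 732 and 740 CPM, a ratio of 1.01 (0.803 to 1.27), and 0.497 (0.402 to 0.613) over all members.

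The NF-kB difference was present in other cell classes of the libraries too, in part. In T cells 8 of 20 genes of the list were 2-fold higher (median 0.78, with 4.47% of all features higher) and in macrophages 10 of 20 (0.93, with 16.6%). In the other dendritic cells 7 of 21 were higher (0.56, with 8.99%) and in B cells 1 of 20 (0.50, with 4.09%), and none was 2-fold lower in these 4 classes. Rel was 4.13 times as high in B cells and 2.22 times in T cells, Nfkbia 1.44 and 1.74 times, and Tnfaip3 1.85 and 2.96 times. In macrophages and in the other dendritic cells Rel was 2.70 and 2.37 times as high, Nfkbia 3.72 and 1.98 times, and Tnfaip3 2.11 and 2.01 times. Over all members the ratio of Rel lay under that of B cells and the ratio of Tnfaip3 under that of T cells. Whether the difference differs between classes was not tested, since each is 1 value per class.

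Promoters of NF-kB genes with this difference are shown because many genes of the pathway are known to be under its own control. An NF-kB motif, GGG, any 2 bases, then TTTCC, was searched on both strands (GGAAA, 2 bases, CCC on the other) from 250 bases before to 50 after each start, in RefSeq sequences of GRCm38.p6. It was found in 535 of 32851 promoters (1.63%), in 8 of 24 promoters of the NF-kB pathway list (33.3%), in 0 of 5 promoters of the rule genes and in 0 of 12 of the 15 highest genes. By gene these were 6 of the 17 with an entry, since 3 of the 8 promoters belong to Nfkb2, and 3 of the 6 genes (Nfkb2, Traf2 and Traf3) are not among the 11 that were 2-fold higher. The promoters of Rel (chr11:23770920-23771219), Nfkbia (chr12:55492598-55492897) and Tnfaip3 (chr10:19015361-19015660), all on the minus strand, were chosen because they hold a match and belong to the 11 genes 2-fold higher, and are printed in the direction of the gene with the match in capitals, at 91, 29 and 12 bases before the start.
Rel: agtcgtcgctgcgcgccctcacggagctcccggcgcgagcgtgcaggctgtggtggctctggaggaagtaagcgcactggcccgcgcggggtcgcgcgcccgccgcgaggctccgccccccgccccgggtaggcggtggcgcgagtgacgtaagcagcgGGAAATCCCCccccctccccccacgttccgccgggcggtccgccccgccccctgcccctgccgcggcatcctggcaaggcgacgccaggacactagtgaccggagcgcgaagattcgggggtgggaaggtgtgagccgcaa
Nfkbia: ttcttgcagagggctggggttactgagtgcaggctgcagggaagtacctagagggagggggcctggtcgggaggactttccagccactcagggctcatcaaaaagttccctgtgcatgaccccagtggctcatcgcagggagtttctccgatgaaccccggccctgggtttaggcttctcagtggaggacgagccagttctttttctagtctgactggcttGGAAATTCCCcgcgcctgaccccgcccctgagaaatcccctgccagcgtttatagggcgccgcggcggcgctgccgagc
Tnfaip3: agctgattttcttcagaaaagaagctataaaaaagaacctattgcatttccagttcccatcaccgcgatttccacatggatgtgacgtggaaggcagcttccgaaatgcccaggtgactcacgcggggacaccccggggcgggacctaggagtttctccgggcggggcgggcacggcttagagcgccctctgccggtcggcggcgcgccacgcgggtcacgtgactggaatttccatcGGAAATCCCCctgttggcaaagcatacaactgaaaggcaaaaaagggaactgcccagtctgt
A match describes letters and is not a measured site, and no binding was measured here.

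Several costimulatory genes were also higher in one-class members of Pdgfrb-Cre; TERT fl/fl. Of 11 costimulation genes 6 were 2-fold higher and 2 lower (median 1.29), where all members gave 2 and 2 of 9 (-0.69), so the median had opposite signs with and without the mixed barcodes. Of 12 regulatory genes 5 were 2-fold higher and none lower over one-class members (0.60), and 5 higher and 1 lower over all members (0.85). Among all features 15.6% were higher and 12.7% lower over one-class members, and 26.2% and 5.76% over all members. In the other dendritic cells 4 of 8 costimulation genes were 2-fold higher and 1 lower (0.80). Of 11 regulatory genes there 3 were higher and 2 lower (-0.37). Among all features of those cells 8.99% were 2-fold higher and 14.7% lower. Cd86, a ligand of Cd28, was at 63.0 and 401 CPM (6.36 times, 3.67 to 11.7). It was seen in 11 of 43 and 15 of 21 barcodes, against 21.6% and 47.3% of B cells and 7.23% and 5.86% of T cells. The members differed in median depth (2491 and 9598 UMIs) and the B cells little (3617.5 and 3435). In B cells Cd86 was 2.39 times as high and in T cells, which held 16.8 and 11.9 CPM, 0.709 times. Cd83, a maturation marker, was at 334 and 1258 CPM (3.76 times, 2.92 to 4.88), against 1.83 in B cells. Icosl, the ligand of Icos, went the other way at 98.4 and 16.7 CPM on 25 and 3 UMIs, 5.89-fold lower (1.80 to 30.5), and was 4.62-fold lower in B cells. Cd274 was at 31.5 and 234 CPM (7.42 times, 3.44 to 18.3), while B cells had a ratio of 1.21 and T cells of 1.04. The levels of Cd86 and Cd274 given above for other dendritic cells were also higher in Pdgfrb-Cre; TERT fl/fl. Cd200, the ligand of an inhibitory receptor, was at 35.4 and 167 CPM (4.71 times, 2.18 to 11.3) and 2.59-fold lower in B cells. Over all members the ratios were 3.23 for Cd86, 1.68 for Cd83, 4.22 for Cd274 and 7.01 for Cd200, and Icosl was 14.6-fold lower.

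Several transcription factors were higher in Pdgfrb-Cre; TERT fl/fl. Of 26 on the list 9 were 2-fold higher and none lower over one-class members (median 0.79), with 15.6% and 12.7% of all features. Over all members 6 of 27 were higher and 2 lower, no larger a share than the 26.2% of all features. Nr4a3, an orphan nuclear receptor known from the migration of dendritic cells, was at 122 and 1886 CPM, 15.5 times (10.7 to 23.1). It was seen in 13 of 43 and 19 of 21 members, against 9.66% and 35.1% of B cells and 33.1% and 80.6% of T cells. It was 7.10 times as high over all members, 4.23 in B cells and 3.38 in T cells. Nr4a3 and Klf4 also stand on the list of immediate early genes that dissociation can raise. Of that list 6 of 22 were 2-fold higher and 3 lower over one-class members, with 15.6% and 12.7% of all features. Over all members 14 of 24 were higher and 1 lower, with 26.2% and 5.76% of all features. The part of dissociation was not tested. Stat4, which relays interleukin 12 signals, was at 15.7 and 312 CPM, 19.8 times (7.32 to 75.2), on 4 UMIs in the wild type, 9.88 times over all members, and 7.62 and 4.17 times as high in B and T cells. Ccr7, a gene of the rule and so given as a description, had 732 and 4557 CPM in one-class members, and it was 3.13 times as high in other dendritic cells, 2.99 in B cells and 2.20 in T cells of Pdgfrb-Cre; TERT fl/fl.

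Among the genes lower in Pdgfrb-Cre; TERT fl/fl, some were lower in B and T cells as well and some were not. All 10 genes with the lowest ratio over all members were 2-fold lower in one-class members. One-class members are part of the barcodes that ranked the genes, so this is no independent check. H2-M2 was at 1787 and 545 CPM, 3.28-fold lower (2.63 to 4.12), with 35 of 43 and 13 of 21 members positive. It was 8.56-fold and 12.04-fold lower in B and T cells, which held at most 29.6 CPM. Gdpd3, a phosphodiesterase, was at 275 CPM in the wild type and had no UMI in Pdgfrb-Cre; TERT fl/fl, at least 16.5-fold lower, and was 528-fold and 966-fold lower in B and T cells. Cdkn2b, the cell cycle inhibitor p15, was at 134 CPM on 34 UMIs in 17 of 43 members and at 5.56 CPM on 1 UMI, 24.05-fold lower (4.03 to 977), while T cells had a difference of 1.18-fold and B cells 0 and 7 UMIs. Hebp1, a heme-binding protein, was 15.7-fold lower (6.53 to 49.3), 2.04-fold in B cells and 51.3-fold in T cells. Polr2l, Bc1, Arhgap45, Lst1, Snrnp25 and Icosl were the others, between 3.45-fold (Snrnp25) and at least 10.6-fold (Bc1) and 12.8-fold (Polr2l) lower in one-class members. In B and T cells Polr2l was 6.01-fold and 1.65-fold lower, Bc1 3.57-fold and 7.16-fold, Arhgap45 2.21-fold and 2.19-fold, Lst1 5.59-fold and 2.50-fold, and Snrnp25 2.41-fold and 1.22-fold. Over all members H2-M2 was 6.72-fold, Gdpd3 65.1-fold (on 2 UMIs) and Polr2l 26.9-fold lower.

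Ccl5 was at 12333 and 6783 CPM in one-class members, 1.82-fold lower (1.70 to 1.94), and 4.11-fold lower over all members. In T cells it was 2.58 times as high in Pdgfrb-Cre; TERT fl/fl, so the direction in T cells was the opposite. Of 20 MHC class I genes none was 2-fold higher and 1 lower over one-class members, with 15.6% and 12.7% of all features. Over all members none was higher and 6 were lower, with 26.2% and 5.76% of all features. Hspa1a, a heat shock gene that tissue dissociation is known to induce, was at 3298 and 501 CPM (6.58-fold lower, 5.29 to 8.28), and it was 17.0-fold and 20.0-fold lower in B and T cells. In Pdgfrb-Cre; TERT fl/fl 78.9% of its UMIs in one-class members came from 1 barcode.

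**Figure D5:**
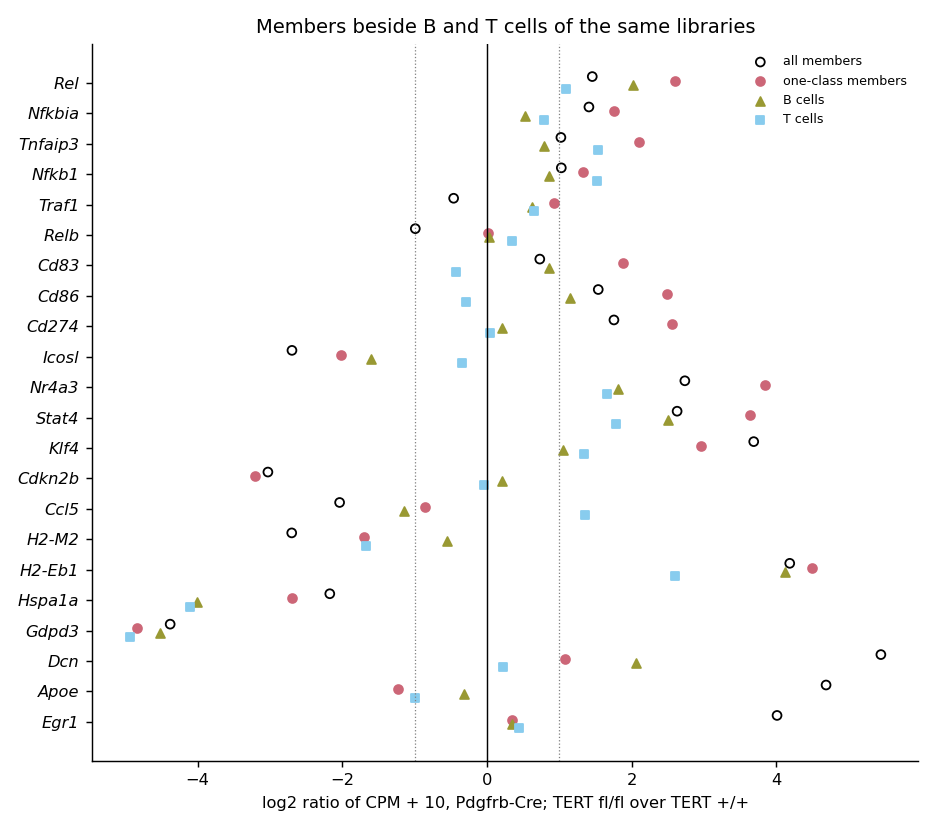
log2 ratio of CPM plus 10, Pdgfrb-Cre; TERT fl/fl over TERT +/+, for 22 genes in all members (open circles), one-class members (filled circles), B cells (triangles) and T cells (squares), with dotted lines at 2-fold. Rel, Nr4a3, Cd86 and Cd274 lie right of the lymphocytes in one-class members, H2-Eb1, Hspa1a and Gdpd3 differ in all sets, and Dcn, Apoe and Egr1 are highest in all members.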

How the data were processed

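The authors deposited counts: raw UMI counts of each gene in each barcode, from Cell Ranger 3.1.0 and STAR 2.6 on mm10 per the submitters' processing notes. Counts were read with pandas 2.3.3, summed over the barcodes of a set and scaled to its UMI total as CPM with exact Poisson intervals (scipy 1.17.1). Ratios carry exact conditional binomial intervals, shares Clopper-Pearson intervals, all at the 95% level. Bounds against a set with no UMI take 3 counts for that set. Log2 ratios had 10 CPM added, and features with at least 10 CPM on either side were read. The fold and interval steps were tested on simulated data: all of the 100 genes raised and 100 lowered 4-fold passed 2-fold, and 97.3% of intervals over 8349 genes held the true ratio. Of the unchanged genes 5.62% passed 2-fold as well. The changed genes were drawn from those with many counts. The simulation held counting error alone, so it cannot show how the steps hold under spread between barcodes. Coordinates are GENCODE M21 on GRCm38.

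The members and the gene lists were chosen with earlier results of these data known. Named were the rule genes, members of the lists, the 10 genes highest and 10 lowest between genotypes, and the 15 highest and 10 lowest beside other dendritic cells (by the smaller of both libraries' ratios), with at least 50 CPM and a UMI in 25% of members. Mitochondrial, ribosomal protein and model genes were left out of these. Genes named for 1 barcode holding many UMIs were looked at after their values were seen. Ccl19, Ccl21a, Cd58 and Ifi30 were not analysed here. Doublets were not removed in the main analysis. Scrublet (scanpy 1.11.5), thinning and other filters, scalings and sets were tried as alternatives.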

Additional observations from a re-analysis of the deposited data

How the results depend on the processing

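No paired analysis was possible because each genotype was 1 library. Sets of one-class members and of members with at least 4000 UMIs were chosen after the data were seen, as were the values without the barcode richest in a gene. The share of members in the wild type (1.80%) was 2.94% at 5% mitochondrial UMIs at most, 3.48% with 2 markers, 1.25% with 4, 2.603% with no condition on Cd3e and Cd79a and 0.733% at 4000 UMIs. The share in Pdgfrb-Cre; TERT fl/fl (0.669%) was 1.08% at 5% mitochondrial UMIs and 2.03% with 2 markers. Genes 2-fold higher in Pdgfrb-Cre; TERT fl/fl (2292) numbered 727 with 2 markers, 1244 with 4, 1163 in one-class members, 1344 in one-class members of 4000 UMIs and 860 at 50 CPM. Genes 2-fold lower (504) numbered 776 with 4 markers, 943 and 816 in those sets, 981 with 1 CPM added, 783 with median-of-ratios scaling, 1083 with the mean over members and 236 at 50 CPM. The split under the mean over members was 1757 higher to 1083 lower. Beside other dendritic cells the 305 higher genes became 166 at 50 CPM and 471 in one-class members, and the 367 lower genes 637 with 1 CPM added, 563 with the mean over members, 189 at 50 CPM and 719 in one-class members. Log2 ratios between genotypes turned for Apoe (-1.22, and -0.97 at 4000 UMIs), Cebpd (-0.20 and -0.28) and Ier3 (-1.10 and -0.91) in one-class members, and the Toll-like receptor list of the wild type beside other dendritic cells turned to a median of 0.12 at 50 CPM. Scrublet left out 60 and 130 barcodes and kept 49 and 25 members. The cause of these shifts was not tested.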

Other observations

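Cell cycle genes were low in the members of Pdgfrb-Cre; TERT fl/fl beside other conventional dendritic cells: 13 of 19 proliferation genes were 2-fold lower and none higher over one-class barcodes (median -1.48), where 21.7% of all features were lower and 16.3% higher. In the wild type 2 of 9 were lower and 4 higher (0.16), with 27.6% and 14.6% of all features. Mki67, a marker of cycling cells, had 1 UMI in one-class members of the wild type and 10 in those of Pdgfrb-Cre; TERT fl/fl, 6 of them in 1 barcode. Of p53 target and telomere genes, 4 of 14 were 2-fold higher than in other dendritic cells and 2 lower in the wild type, and 5 of 16 higher and 2 lower in Pdgfrb-Cre; TERT fl/fl, over one-class barcodes. Between genotypes Cdkn1a, the cell cycle inhibitor p21, was at 299 and 467 CPM in one-class members (1.56 times, 1.13 to 2.16) and 6.76 times as high in T cells.

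Interferon response genes differed between the libraries and between genes. Over all members 12 of 23 were 2-fold lower than in other dendritic cells and 4 higher in the wild type (median -1.03). Of all features there 28.7% were lower and 10.4% higher (-0.46). In Pdgfrb-Cre; TERT fl/fl 3 of 16 were lower and 5 higher (0.63), where 8.25% of all features were lower and 16.4% higher (0.17). The medians over all features thus also had opposite signs. Of 16 tested in both libraries, Mx1, Gbp2 and Gbp5 were 2-fold higher in all members of both libraries than in other dendritic cells, and Ifi27l2a, Bst2 and Stat2 were 2-fold lower. Gbp2, a guanylate-binding protein, was at 213 against 6.52 CPM in one-class members of the wild type and at 106 against 6.29 CPM in Pdgfrb-Cre; TERT fl/fl. Ifi27l2a was 11.2-fold (7.63 to 16.9) and 28.6-fold (7.80 to 239) lower. Fabp5, a fatty acid-binding protein, was 17.1 (8.55 to 40.2) and 5.38 (4.50 to 6.44) times as high in the members, and Abcg1, a cholesterol exporter, 2.42 and 4.86 times. Of 7 Toll-like receptor genes and adaptors tested over all members, Cd14 and Unc93b1 were 2-fold lower in both libraries and none was higher. Crlf2, a chain of the receptor for the epithelial cytokine TSLP, was 4.64-fold (1.58 to 16.5) and 2.69-fold (1.28 to 6.52) lower.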
